A study of Mus musculus with 8 samples.

Results

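The miR-15/miR-107 group is a set of microRNAs (miRNAs) that carry nearly the same bases at their 5′ end. The 8 members examined here were given by name, as mmu-miR-15a-5p, mmu-miR-15b-5p, mmu-miR-16-5p, mmu-miR-195a-5p, mmu-miR-497a-5p, mmu-miR-322-5p, mmu-miR-103-3p and mmu-miR-107-3p, and the mouse prefix mmu is left out from here on. The rule that lists them uses the seed and no measured value, although the list was drawn up with earlier results of these data known. Of the 8, 7 had a row among the 422 miRNAs of the count table, and miR-15a-5p was not analysed here. Counts came from small RNA libraries of the hippocampus of adult males, 4 of BTBR and 4 of B6, with 1 library per mouse. B6 is the inbred strain C57BL/6J, used as the control, and BTBR is the inbred strain BTBR T+ Itpr3tf/J, which the study uses as a mouse model of idiopathic autism. The mice were 12 weeks old, came from colonies bred from Jackson Laboratory stock, and received no treatment that the labels or methods name, and the strains differ across the genome, so that no single allele separates the groups.

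A miRNA guides the silencing complex to messenger RNAs that pair with its seed, the bases 2 to 8 from its 5′ end, and miRNAs with a common seed can therefore share targets. miR-15 and miR-16 are known for restraining regulators of the cell cycle and of cell survival, among them Ccnd1 and Bcl2. miR-103 and miR-107 are made from introns of the pantothenate kinase genes, whose enzymes start the synthesis of coenzyme A, and they are known to repress Dicer1, which encodes the enzyme that cuts miRNA precursors. miR-16 is also abundant in blood, and its level in a tissue is for that reason read beside miR-451a, a miRNA of red blood cells.

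The sequences of the group show what the members share and where they part. Mature sequences were taken from RefSeq on GRCm38.p6, where 367 of the 422 miRNAs were matched by name, and are given 5′ to 3′ with the seed in capitals.
miR-15a-5p: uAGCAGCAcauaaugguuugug
miR-15b-5p: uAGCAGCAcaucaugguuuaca
miR-16-5p: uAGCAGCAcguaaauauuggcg
miR-195a-5p: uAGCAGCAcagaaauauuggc
miR-497a-5p: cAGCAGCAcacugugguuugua
miR-322-5p: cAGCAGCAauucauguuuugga
miR-103-3p: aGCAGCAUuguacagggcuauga
miR-107-3p: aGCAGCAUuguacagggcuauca
The run AGCAGCA, of 7 bases, stands in every member. It starts at base 2 in the 6 members of the miR-15 branch and at base 1 in miR-103-3p and miR-107-3p, whose seed is thus shifted by 1 base. The 6 bases GCAGCA that all 8 seeds hold were found within bases 1 to 9 of 14 of 1679 mature miRNA names in RefSeq (0.834%) and of 8 of the 367 matched miRNAs (2.18%). The eighth of these measured miRNAs was miR-195b, which is no member of the list.
miR-195b: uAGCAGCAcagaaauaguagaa
miR-503-5p: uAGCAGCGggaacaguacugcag
miR-503-5p, a neighbour of miR-322-5p, holds AGCAGC but has another last seed base and was kept as a partner.

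Several of these sequences are close enough to bear on how reads were assigned. miR-103-3p and miR-107-3p are identical over 22 of 23 bases and differ by G22C, with miR-103-3p given first and positions counted from 1 at the 5′ end, so that a read of the first 21 bases is the same for both. miR-195a-5p and miR-195b share their first 16 bases and differ by U17G, G19A and C21A. miR-16-5p and miR-195a-5p differ by G10A and U11G over 21 positions, and their first 9 bases are the same. How the reads were divided among such pairs could not be examined from counts, and the values of miR-103-3p, miR-107-3p, miR-195a-5p and miR-195b are uncertain to that extent.

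The hairpins lie at separate loci. On chromosome 3 the hairpins of miR-15b (69009772 to 69009835) and miR-16-2 (69009902 to 69009996) sit side by side in an intron of Smc4, a condensin subunit gene, on its strand. A second hairpin of miR-16, miR-16-1 on chromosome 14 (61631880 to 61631972), overlaps a transcript of the non-coding gene Dleu2 next to miR-15a, and both hairpins give the same miR-16-5p. miR-497a (70234717 to 70234800) and miR-195a (70235042 to 70235135) neighbour each other on chromosome 11 outside other annotated genes. miR-503 (53053984 to 53054054) and miR-322 (53054255 to 53054349) do so on the X chromosome. miR-103-3p comes from an intron of Pank2 on chromosome 2 (131288052 to 131288137) and from an intron of Pank3 on chromosome 11 (35782396 to 35782481). miR-107-3p comes from an intron of Pank1 on chromosome 19 (34820687 to 34820773). All positions are those of GRCm38, the build to which the reads were mapped.

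The libraries held between 2247482 (BTBR replicate 2) and 7904990 (BTBR replicate 4) reads counted on miRNAs, a 3.52-fold range, while the B6 libraries lay between 5078301 and 5792967. Precision differs accordingly, since the least abundant member, miR-322-5p, had 41 to 222 reads per library and the most abundant, miR-16-5p, 10384 to 69256. The neuronal miRNAs miR-124-3p, miR-128-3p, miR-9-5p and miR-138-5p were all measured and summed to between 48542 and 77485 CPM (read counts scaled to the size of the library, with TMM factors), so markers of the labelled tissue were present in every library. BTBR replicate 2, the shallowest library, stood apart from the other BTBR mice in miR-16-5p and in the make-up of the group, so values are also given without it. The tissue is bulk hippocampus, in which fewer cells of a type and less RNA per cell cannot be told apart.

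The group was dominated by miR-16-5p and miR-103-3p in every mouse. The 7 members together took 1.13% to 1.59% of all counts of a library. miR-16-5p and miR-103-3p made up 89.8% to 93.4% of the counts of the group, and together they were followed at a distance by miR-107-3p and miR-195a-5p. Counts are reads of molecules of 21 to 23 bases, so no length scaling was needed to compare members, although the ligation of adapters is known to favour some sequences over others. In mean level over the 8 mice the order was miR-16-5p (7698 CPM), miR-103-3p (5521 CPM), miR-107-3p (476 CPM), miR-195a-5p (432 CPM), miR-15b-5p (52.7 CPM), miR-497a-5p (26.7 CPM) and miR-322-5p (21.8 CPM). 3 neighbours in this order were not separated in every mouse. miR-16-5p exceeded miR-103-3p in 7 of 8 mice, all except BTBR replicate 2. miR-107-3p exceeded miR-195a-5p in all 4 B6 mice and in 1 of 4 BTBR mice. miR-497a-5p exceeded miR-322-5p in 6 of 8 mice.

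**Figure D1:**
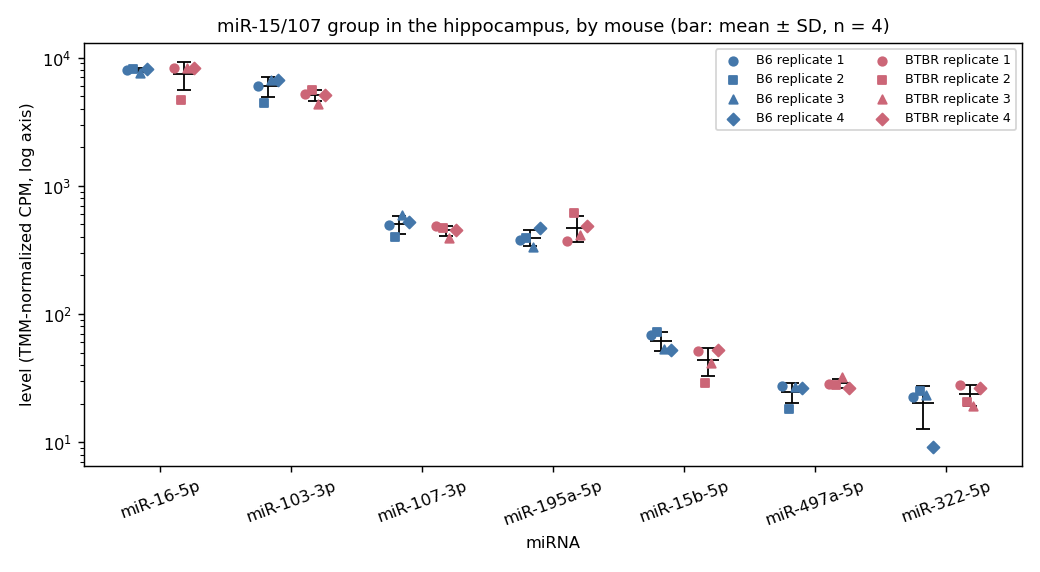
Level of each of the 7 measured members (x axis) in TMM-normalized CPM on a log axis (y axis), with 1 point per mouse, shapes for replicates, and bars for the mean ± SD of each strain (n = 4). The strains overlap in every member, and BTBR replicate 2 is the lowest mouse for miR-16-5p (4662 CPM) and miR-15b-5p (29.2 CPM) and the highest for miR-195a-5p (616 CPM).

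The question of the study was which miRNAs differ between the BTBR and B6 hippocampus. No member of the group passed the study's threshold of an adjusted p of 0.1, where 7 of 422 miRNAs did (1.66%), by the quasi-likelihood test of edgeR, adjusted by Benjamini-Hochberg over the whole table. At an unadjusted p under 0.05 the count was also 0 of 7 members, against 46 of 422 miRNAs (10.9%), and none passed the adjusted threshold with the DESeq2 Wald test, limma-voom or edgeR's exact test. Over all 422 miRNAs the number passing depended on the test, with 16 by edgeR's exact test and 21 by the DESeq2 Wald test. The study used edgeR and does not name which of its tests. The strains overlapped in each of the 7 members, against 28 of 422 miRNAs (6.64%) in which they did not. The overlap depended on the scaling and the mice for miR-15b-5p, miR-497a-5p, miR-103-3p and miR-107-3p, as given with each of these. By direction, 1.18% of all miRNAs passed as higher and 0.474% as lower in BTBR mice, and 3.32% were without overlap in each direction. The log2 fold change (log2FC, BTBR against B6) of the members lay between −0.49 (miR-15b-5p) and 0.26 (miR-195a-5p), with 3 above 0, 4 below (49.1% of all miRNAs were below) and a median of −0.10, beside a median of 0.02 over all 422. Each log2FC is given below with its standard error (SE) and the adjusted p of that fit. The 95% intervals bound what these libraries leave room for. They reached from 0.482-fold to 1.05-fold for miR-15b-5p, from 0.644-fold to 1.13-fold for miR-103-3p and from 0.707-fold to 1.97-fold for miR-322-5p.

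**Figure D2:**
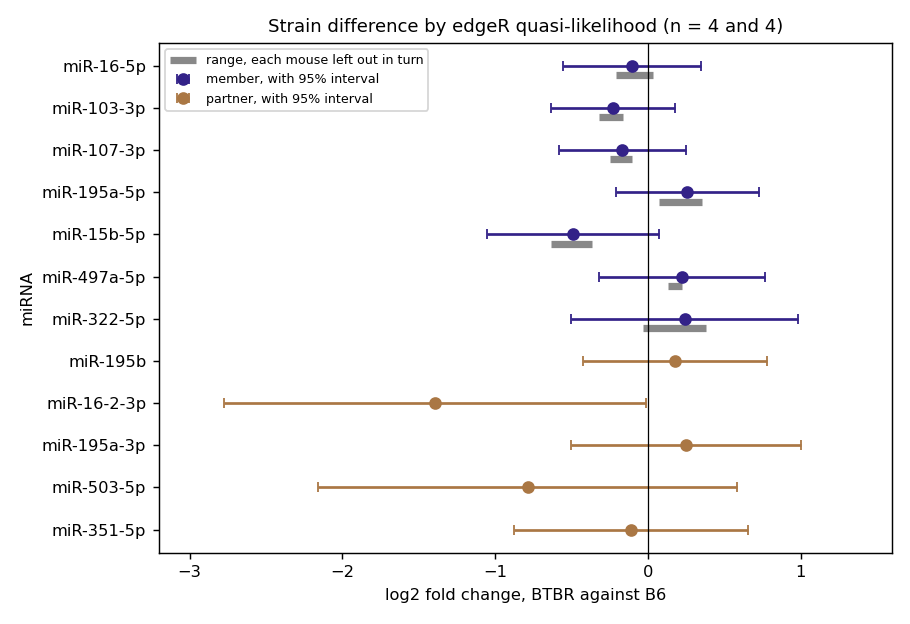
The log2FC of BTBR against B6 (x axis) for the 7 members and the 5 measured partners, namely arms, cluster neighbours and miR-195b (y axis), with 95% intervals from edgeR's quasi-likelihood fit and, for members, grey bars for the range when each of the 8 mice was left out in turn. Every interval of a member spans 0, and the grey bars of miR-16-5p and miR-322-5p cross 0.

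miR-16-5p, the most abundant member and number 20 of 422 miRNAs by mean level, was nearly constant in 7 of the 8 mice. The B6 mice had 7972, 8118, 7630 and 8191 CPM. The BTBR mice had 8357, 4662, 8325 and 8332 CPM. BTBR replicate 2 lay far below the other 7 mice, which spanned 7630 to 8357 CPM, and the 3 other BTBR mice lay above every B6 mouse. The mean was 7978 ± 249 CPM for B6 and 7419 ± 1838 CPM for BTBR mice (SD, n = 4) (log2FC −0.10, SE 0.21, edgeR adjusted p = 0.885). Without BTBR replicate 2 the log2FC was 0.0359 (SE 0.13). With all 8 mice kept, it was also above 0 with libraries scaled by size only (0.0497) and with miR-451a as a covariate (0.23), so no direction held throughout.

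The low value of miR-16-5p in BTBR replicate 2 was large, and by size alone it was not rare for that library. It was 0.559 times the level of the other BTBR mice (a difference of −0.84 in mean log2 level), and 79 of 422 miRNAs were as low or lower by this measure, among them 16 of the 134 with a mean of at least 1000 reads. Set against the spread of the other BTBR mice it was rarer. By the gap rule of the flagged results, that mouse was marked as lowest in 9 of 422 miRNAs (2.13%), miR-16-5p among them. The miRNAs whose pattern over the 8 libraries was most like that of miR-16-5p were miR-136-5p, miR-136-3p and miR-543-5p (Pearson's r of 0.972, 0.957 and 0.955 on log2 levels, the 3 highest of non-members). miR-136-5p had 12.1 CPM in BTBR replicate 2 and 66.4 to 75.4 CPM in the other BTBR mice. miR-136-3p had 122 and 313 to 488 CPM in the same comparison. Both were lowest in the mouse in which miR-16-5p was lowest, and these likenesses come from 8 points that share their libraries.

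miR-15b-5p is made from the hairpin beside miR-16-2 in Smc4. It measured 69.1, 71.9, 53.3 and 52.4 CPM in B6 replicates 1 to 4 and 51.6, 29.2, 41.6 and 52.5 CPM in BTBR replicates 1 to 4. Only BTBR replicate 4 reached into the range of B6, at 52.46 CPM against 52.35 CPM in B6 replicate 4, and the strains did not overlap with DESeq2 size factors or without any 1 of B6 replicates 1, 3 and 4 and BTBR replicates 2 and 4. The mean was 61.7 ± 10.3 CPM for B6 and 43.7 ± 10.9 CPM for BTBR mice (SD, n = 4). The log2FC was −0.49 (SE 0.26, edgeR p = 0.0806, adjusted p = 0.521), and permuting the 70 assignments of the mice (exact, two-sided) gave p = 0.0571. This was the largest difference of the 7 members, and it did not pass. It stayed below 0 under all 20 alternatives, from −0.71 to −0.36.

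Set against miR-16-5p of the same library, miR-15b-5p was lower in BTBR mice. There were 8.68, 8.87, 6.996 and 6.41 reads of miR-15b-5p per 1000 reads of miR-16-5p in the B6 mice and 6.19, 6.31, 5.01 and 6.30 in the BTBR mice. Every BTBR mouse was below every B6 mouse, and this ratio needs no normalization between libraries. The difference was −0.37 on the log2 scale (0.773-fold, exact permutation test, p = 0.0286, the smallest that 4 against 4 mice can give, adjusted p = 0.0857 over the 9 ratios computed). This adjusted p is under 0.1 only because the ratios of miR-16-5p and miR-103-3p to miR-451a, given below, tie at the same p. The intervals of the nearest mice overlapped. BTBR replicate 2 had 65 reads of miR-15b-5p, for an exact 95% binomial interval of 4.83 to 7.99 per 1000, and B6 replicate 4 had 233, for 5.59 to 7.27. With each mouse left out in turn, the ratio stayed lower in BTBR mice (−0.46 to −0.29), but the adjusted p rose to between 0.129 and 0.257 (exact permutation tests with 3 against 4 mice), and with all 8 mice and a pseudocount of 5 it was 0.171, so the call held under none of these. The unadjusted p of that test stayed at 0.0286, the smallest possible, without any 1 B6 mouse. It was 0.0571 or 0.0857 without 1 of the BTBR mice, and 0.0571 with the pseudocount of 5.

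The other arm of the miR-16-2 hairpin, miR-16-2-3p, is the strand that is mostly discarded. It had 23, 21, 11 and 6 reads in the B6 mice and 11, 1, 3 and 6 reads in the BTBR mice (log2FC −1.39, SE 0.63, edgeR adjusted p = 0.451). The strains overlapped. miR-16-5p was 1768 to 5608 times as abundant in the B6 mice and 3535 to 10655 times in the BTBR mice, a difference of 1.27 in log2 ratio that did not pass (exact permutation test, p = 0.0571, adjusted p = 0.129 over 9 ratios). With as little as 1 read in a library the value depends on the pseudocount, and with 5 in place of 0.5 the difference was 0.60 (exact permutation test, p = 0.286). Since miR-16-5p is the product of a pair of hairpins and miR-16-2-3p of 1, the ratio does not measure the arms of a single hairpin.

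**Figure D3:**
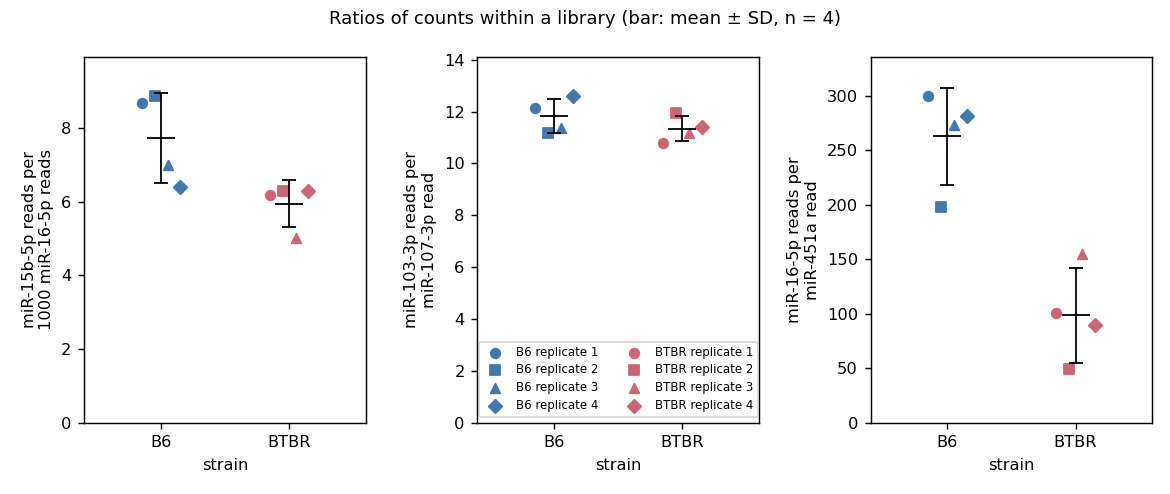
Ratios of counts within a library by strain (x axis), as reads of miR-15b-5p per 1000 reads of miR-16-5p, reads of miR-103-3p per read of miR-107-3p, and reads of miR-16-5p per read of miR-451a (y axes from 0), with 1 point per mouse and bars for the mean ± SD (n = 4). The strains do not overlap in the left and right panels, and in the middle panel all 8 mice lie between 10.8 and 12.6.

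miR-195a-5p and miR-497a-5p are made from neighbouring hairpins on chromosome 11. miR-195a-5p measured 377, 391, 336 and 468 CPM in B6 replicates 1 to 4 and 372, 616, 411 and 482 CPM in BTBR replicates 1 to 4. This gave a log2FC of 0.26 (SE 0.21, edgeR adjusted p = 0.713). BTBR replicate 2 was the highest mouse, which is the opposite of its place in miR-16-5p, and without it the log2FC was 0.07. It was 0.40 with library size only and −0.21 with miR-451a as a covariate. miR-497a-5p measured 27.3, 18.2, 26.8 and 26.3 CPM in B6 replicates 1 to 4 and 28.6, 27.8, 32.1 and 26.6 CPM in BTBR replicates 1 to 4. B6 replicate 2 was the one mouse well below the rest, and the strains did not overlap with upper-quartile factors or with library size only. The mean of miR-497a-5p was 24.7 ± 4.30 CPM for B6 and 28.8 ± 2.34 CPM for BTBR mice (SD, n = 4), and the log2FC of 0.22 (SE 0.25, edgeR adjusted p = 0.787) became 0.13 without B6 replicate 2, 0.40 with library size only and 0.96 (SE 0.53, edgeR adjusted p = 0.992) with miR-451a as a covariate.

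The neighbours kept no fixed ratio from mouse to mouse. There were between 12.5 and 21.3 reads of miR-195a-5p for each read of miR-497a-5p in the B6 mice and between 12.8 and 21.98 in the BTBR mice, and the mean log2 ratios differed by 0.003 (exact permutation test, p = 1). miR-195a-3p, the other arm of the miR-195a hairpin, had 55 to 71 reads in B6 and 20 to 88 reads in BTBR libraries. That arm had a log2FC of 0.25 (SE 0.34). The ratio of the 5p to the 3p arm was 27.5 to 37.6 in the B6 mice and 18.5 to 67.0 in the BTBR mice, highest in BTBR replicate 2, with overlap between strains (exact permutation test, p = 0.857, adjusted p = 0.996 over 9 ratios).

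miR-195b, from a hairpin on chromosome 2 (56785811 to 56785907) outside annotated genes, was listed at nearly the level of miR-195a-5p, whose first 16 bases it shares. It measured 372, 234, 375 and 413 CPM in B6 replicates 1 to 4 and 448, 504, 223 and 399 CPM in BTBR replicates 1 to 4. The highest mouse was again BTBR replicate 2, while the lowest was BTBR replicate 3, which was not low in miR-195a-5p. The log2FC was 0.18 (SE 0.27, edgeR adjusted p = 0.837).

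miR-322-5p, the mouse counterpart of human miR-424, is made on the X chromosome together with miR-503-5p and miR-351-5p. It measured 22.6, 24.9, 23.4 and 9.21 CPM in B6 replicates 1 to 4 and 28.2, 20.7, 19.0 and 26.7 CPM in BTBR replicates 1 to 4. B6 replicate 4 lay far below the other 7. The log2FC was 0.24 (SE 0.34, edgeR adjusted p = 0.822), and −0.0307 without B6 replicate 4. Of its neighbours, miR-351-5p was also lowest in that mouse. miR-351-5p had 13.9 CPM in B6 replicate 4 and 20.7 to 43.8 CPM in the other 7 (log2FC −0.11, SE 0.35). miR-503-5p, with 5 to 31 reads per library, had 1.123 CPM in B6 replicate 4 but was lowest in BTBR replicate 4, at 0.722 CPM (log2FC −0.79, SE 0.63). The ratio of miR-322-5p to miR-503-5p was 3.76 to 9.32 in the B6 mice and 7.15 to 34.2 in the BTBR mice, a log2 difference of 0.93 that did not pass (exact permutation test, p = 0.114, adjusted p = 0.206 over 9 ratios). With each mouse left out it lay between 0.45 (without BTBR replicate 4) and 1.20 (without BTBR replicate 2), with adjusted p from 0.129 to 0.669 by the exact permutation test.

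The list of partners held the other arms and cluster neighbours of the members and the related miR-195b and miR-497b, and 5 of its 21 miRNAs were in the count table, namely miR-16-2-3p, miR-195a-3p, miR-351-5p, miR-503-5p and miR-195b. None passed the adjusted threshold by edgeR's quasi-likelihood test, 3 were below 0 and 2 above, and 1 of them, miR-16-2-3p, had an unadjusted p under 0.05 (0.0485), beside 1.66% and 10.9% of all miRNAs at these thresholds.

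miR-103-3p and miR-107-3p, the members hosted by Pank introns, moved together. miR-103-3p measured 6005, 4459.6, 6744 and 6635 CPM in B6 replicates 1 to 4 and 5231, 5607, 4358 and 5131 CPM in BTBR replicates 1 to 4. miR-107-3p measured 494, 399, 594 and 527 CPM in B6 replicates 1 to 4 and 484, 469, 389.7 and 450.3 CPM in BTBR replicates 1 to 4. In both, 3 of 4 B6 mice lay above every BTBR mouse, and B6 replicate 2 lay below 3 of 4 BTBR mice. The log2FC was −0.23 for miR-103-3p (SE 0.18, edgeR adjusted p = 0.699) and −0.17 for miR-107-3p (SE 0.19, edgeR adjusted p = 0.787). Without B6 replicate 2 the strains did not overlap in either, with a log2FC of −0.32 for miR-103-3p (edgeR adjusted p = 0.398) and of −0.24 for miR-107-3p (edgeR adjusted p = 0.575). B6 replicate 2 was the mouse that made them overlap, and the share of all miRNAs without overlap in that setting is not given. With libraries scaled by size only, all 8 mice kept, the log2FC was −0.0626 for miR-103-3p and −0.0030 for miR-107-3p. Across the 8 libraries the log2 levels of the pair had a Pearson's r of 0.957, the highest between any pair of members.

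The ratio of miR-103-3p to miR-107-3p was the most constant of those computed. There were 12.2, 11.2, 11.4 and 12.6 reads of miR-103-3p for each read of miR-107-3p in the B6 mice and 10.8, 11.96, 11.2 and 11.4 in the BTBR mice. The strains overlapped, and the log2 ratio differed by −0.06, with SDs of 0.08 in B6 and 0.06 in BTBR mice (exact permutation test, p = 0.286, adjusted p = 0.429 over 9 ratios). Reads of the first 21 bases cannot be told apart between these miRNAs, and the part of such reads in the constancy was not tested. The non-members most like miR-103-3p were miR-672-5p, let-7c-5p and let-7i-5p (Pearson's r of 0.988, 0.980 and 0.966 over the 8 libraries).

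The balance between the main members overlapped between the strains. miR-16-5p made up 53.3%, 60.2%, 49.5% and 51.5% of the counts of the group in the B6 mice and 57.4%, 40.8%, 61.3% and 57.5% in the BTBR mice. miR-103-3p made up 40.1%, 33.1%, 43.8% and 41.7% in the B6 mice and 35.9%, 49.1%, 32.1% and 35.4% in the BTBR mice. Both strains held mice with more and with less miR-16-5p, and BTBR replicate 2 alone held more miR-103-3p than miR-16-5p. The ratio of miR-16-5p to miR-103-3p was 1.13 to 1.82 in the B6 mice and 0.831 to 1.91 in the BTBR mice, with a log2 difference of 0.07 (exact permutation test, p = 0.886, adjusted p = 0.996 over 9 ratios). Without BTBR replicate 2 the BTBR mice lay between 1.598 and 1.91, and the log2 difference was 0.33. miR-195a-5p took 2.18% to 2.94% of the group in the B6 mice and 2.55% to 5.39% in the BTBR mice, with the highest share in BTBR replicate 2. The summed level of the group was 14941 ± 1046 CPM for B6 and 13515 ± 1460 CPM for BTBR mice (SD, n = 4), and was lowest in BTBR replicate 2, at 11432 CPM. As a share of all counts it was 1.42% in B6 and 1.43% in BTBR mice, so the direction turned without TMM factors.

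**Figure D4:**
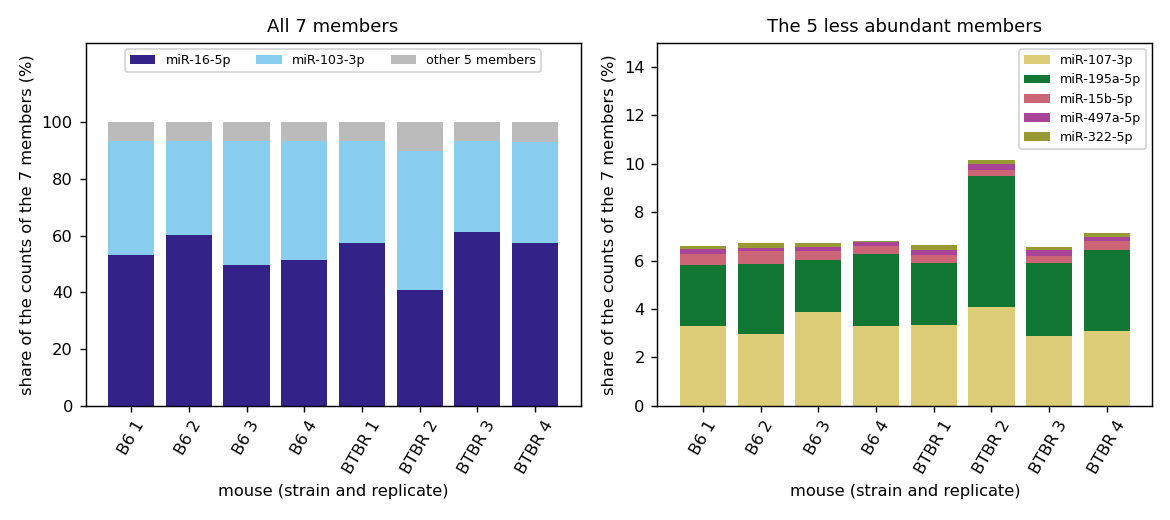
Share of each member in the summed counts of the 7 members (y axis, %) in each mouse (x axis), for all members on the left and for the 5 less abundant members on the right, each bar being 1 library. BTBR replicate 2 holds the smallest share of miR-16-5p (40.8%) and the largest of miR-195a-5p (5.39%), and the other 7 mice hold between 49.5% and 61.3% of miR-16-5p.

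miR-451a, which is cut by Ago2 rather than by Dicer and is abundant in red blood cells, served to set miR-16-5p beside blood. It measured 26.5, 40.8, 27.9 and 29.0 CPM in B6 replicates 1 to 4 and 83.0, 94.7, 53.6 and 92.3 CPM in BTBR replicates 1 to 4. Each BTBR mouse lay above each B6 mouse, and the mean rose by 49.9 CPM (log2FC 1.38, edgeR adjusted p = 0.0339). Over the same libraries the mean of miR-16-5p differed by −559 CPM (BTBR minus B6), a sign that turned without BTBR replicate 2, when the BTBR mean was 8338 CPM against 7978 CPM in B6. The blood miRNAs miR-451a, miR-144-3p, miR-144-5p, miR-486a-5p, miR-486b-5p and miR-486a-3p summed to between 565 and 1633 CPM in B6 and between 953 and 2615 CPM in BTBR mice, and all 6 had a log2FC above 0, of which 1 passed the adjusted threshold, beside 215 of all 422 miRNAs above 0 and 7 that passed (1.66%). miR-486a-5p and miR-486b-5p were listed with identical counts, so the sum and the count of 6 include them under both names. The part of blood in the level of miR-16-5p was not tested.

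For each read of miR-451a there were 299.9, 198, 273 and 282 reads of miR-16-5p in the B6 mice and 100.5, 49.1, 155 and 90.2 in the BTBR mice. The strains did not overlap, and the log2 ratio was lower in BTBR mice by a difference of −1.51 (exact permutation test, p = 0.0286, adjusted p = 0.0857 over 9 ratios). For miR-103-3p the ratio to miR-451a was 109 to 241 in the B6 mice and 55.6 to 81.1 in the BTBR mice, a log2 difference of −1.58 with the same p values by the same exact permutation test. Both differences are near the log2FC of miR-451a, the denominator, with its sign turned. Both lost the adjusted threshold when any mouse was left out, with adjusted p between 0.129 and 0.257 by the exact permutation test and log2 differences between −1.86 and −1.22, and with all 8 mice and a pseudocount of 5 (adjusted p = 0.129 for both, exact permutation test). The unadjusted p of that test stayed at 0.0286, the smallest possible, for both with the pseudocount of 5. It also did so for miR-16-5p without any 1 BTBR mouse and for miR-103-3p without any 1 B6 mouse, and was 0.0571 otherwise. The adjusted p depends on how many of the 9 ratios tie at the smallest p.

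Over the 8 mice, the log2 levels of miR-16-5p and miR-451a had a Pearson's r of −0.376 (exact permutation test, p = 0.564, adjusted p = 0.658 over the 7 members) and a Spearman's rho of 0.262 (exact permutation test, p = 0.536, adjusted p = 0.582). BTBR replicate 2 had the most miR-451a and the least miR-16-5p. Without it, r was 0.747 and rho 0.893 (7 mice, adjusted p = 0.310 for r by the exact permutation test). Without the 2 mice farthest from the median of miR-451a, BTBR replicates 2 and 4, r was 0.727 (exact permutation test, p = 0.0847, adjusted p = 0.593). The strains do not overlap in miR-451a, although the gap between them (40.8 to 53.6 CPM) is narrower than the gap within BTBR mice (53.6 to 83.0 CPM), and the relation was not computed within a strain, since each holds only 4 mice. Across the other 6 members r lay between −0.592 (miR-15b-5p) and 0.568 (miR-195a-5p), and no adjusted p was under 0.463 (exact permutation tests).

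**Figure D5:**
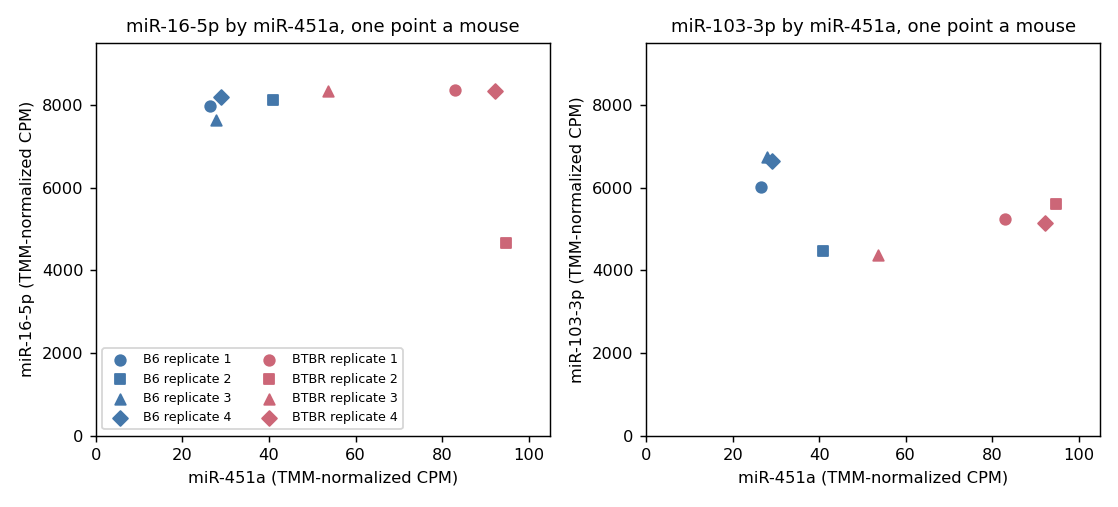
Levels of miR-16-5p (left) and miR-103-3p (right) in TMM-normalized CPM (y axes) against miR-451a (x axes), with 1 point per mouse, blue for B6 and red for BTBR. The strains are apart on the x axis (26.5 to 40.8 CPM against 53.6 to 94.7 CPM), and 7 mice lie between 7630 and 8357 CPM of miR-16-5p with BTBR replicate 2 below at 4662 CPM.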

How the data were processed

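Hippocampal small RNA of 4 BTBR and 4 B6 mice was sequenced. The authors removed adapters, aligned reads with Bowtie within sRNAbench to GRCm38 and assigned reads lying within miRBase v21 annotations, and FastQC 0.11.2 is named in the submitters' processing notes. The deposited values are whole-number counts per mature miRNA, without normalization and without molecular identifiers. The binomial intervals given for a ratio of reads therefore cover counting error only. The intervals of the fold changes come from edgeR's quasi-likelihood fit and also include variation between mice. A supplementary version of the table, not used here, lists some counts with fractions, among them those of miR-103-3p and miR-107-3p, so the deposited values appear to be rounded. Each of the 422 miRNAs had at least 1 read in every library.

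Libraries were scaled by TMM and strains compared with edgeR 4.0.16 (quasi-likelihood test, no covariates, no filter) in R 4.3.3, with Benjamini-Hochberg adjustment over 422 miRNAs and the study's threshold of 0.1. The SE is the log2FC divided by the square root of F. Exact permutation tests were two-sided over the 70 assignments of mice, on log2(CPM + 0.5), or on log2 ratios of counts + 0.5 for the 9 ratios, in Python 3.11.15 with scipy 1.17.1. Alternatives used DESeq2 1.42.0 and limma 3.58.1. The steps were tested on simulated counts. Replicates of a strain differed by more than sampling noise (chi-square per degree of freedom of at least 81.7), and each was kept.

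The members named are those listed, with their arms and neighbours, other miRNAs with the shared bases, blood miRNAs and, for miR-16-5p and miR-103-3p, the 3 most like non-members. Members and lists were chosen with earlier results of these data known. Host genes come from GENCODE M21 on GRCm38.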

Additional observations from a re-analysis of the deposited data

Results flagged for a closer look

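A sample was marked where its gap to the nearest mouse of its strain exceeded 0.829 of the range of the 4 mice, which chance does in about 1 of 20 groups. Of 58 groups of 4 examined, 9 were marked, and they share libraries. miR-16-5p in BTBR replicate 2 stood at 4662 CPM, below the 8325 to 8357 CPM of the other BTBR mice. miR-497a-5p in B6 replicate 2 stood at 18.2 CPM, and miR-322-5p in B6 replicate 4 at 9.21 CPM, each below the other B6 mice. miR-16-2-3p was highest among BTBR mice in replicate 1, at 2.26 CPM from 11 reads. The ratio of miR-15b-5p to miR-16-5p was lowest in BTBR replicate 3, at 0.00501. The ratio of miR-322-5p to miR-503-5p was highest in BTBR replicate 4, at 34.2, with 6 reads of miR-503-5p. The ratio of miR-103-3p to miR-451a was lowest among B6 mice in replicate 2, at 109. The share of the group in all counts was highest among B6 mice in replicate 2, at 1.59%, and lowest among BTBR mice in replicate 2, at 1.13%. Over all 422 miRNAs, BTBR replicate 2 was marked as lowest in 9 and as highest in 11, and B6 replicate 2 as lowest in 4 and as highest in 16, the largest numbers of the 8 libraries.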

How the results depend on the processing

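No member passed the adjusted threshold under any of the 20 alternatives. Members kept their direction, apart from these cases. The log2 fold change of miR-16-5p was 0.0497 with library size only and between −0.21 and 0.0359 with each mouse left out, above 0 without BTBR replicate 2. That of miR-322-5p lay between −0.0307 (without B6 replicate 4) and 0.38. With miR-451a as a covariate, which the strains do not share in range, miR-16-5p was at 0.23, miR-195a-5p at −0.21 and miR-322-5p at −0.39, with standard errors of 0.52, 0.53 and 0.85, while miR-497a-5p moved from 0.22 to 0.96 (SE 0.53). For these reversals other than those made by leaving out a mouse, the cause was not tested.

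The number of members whose strains did not overlap was 1 with DESeq2 size factors (miR-15b-5p) and 1 with upper-quartile factors or library size only (miR-497a-5p), and 0 to 2 with each mouse left out, 1 (miR-15b-5p) in 5 of these 8 fits and 2 (miR-103-3p and miR-107-3p) without B6 replicate 2. The share of all 422 miRNAs without overlap is given for the main scaling only (6.64%), so these counts have no share beside them. With 3 against 4 mice, strains also separate by chance more often than with 4 against 4. Over all 422 miRNAs, 4 passed with library size only, 21 with the DESeq2 Wald test, 16 with edgeR's exact test and 3 to 13 with each mouse left out (13 without B6 replicate 2, 4 without BTBR replicate 1 and 3 without BTBR replicate 3 or 4).

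The ratio of miR-15b-5p to miR-16-5p did not pass with a pseudocount of 5 (−0.35, adjusted p = 0.171, exact permutation test) nor with each mouse left out (−0.46 to −0.29). The same held for the ratio to miR-451a of miR-16-5p (−1.49 with a pseudocount of 5, −1.77 to −1.22 with each mouse left out) and of miR-103-3p (−1.56, and −1.86 to −1.47). Among ratios that did not pass, that of miR-195a-5p to miR-497a-5p was −0.0013 with a pseudocount of 5 and −0.15 to 0.14 with each mouse left out, that of miR-16-5p to miR-103-3p −0.0691 to 0.33, and that of miR-195a-5p to miR-195a-3p −0.24 to 0.38. The ratio of miR-16-5p to miR-16-2-3p was 0.60 with a pseudocount of 5 and 1.03 to 1.601 with each mouse left out, and that of miR-322-5p to miR-503-5p 0.72 and 0.45 to 1.20. Pearson's r of miR-16-5p with miR-451a was 0.0653 with library size only, 0.727 without the 2 mice farthest from the median and −0.534 to 0.747 with each mouse left out.

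Mice share replicate numbers across strains, but same-numbered mice did not deviate together (r between −0.151 and 0.0516). No pairing was used in the main fit, and whether same-numbered mice shared a step of processing was not tested. With the replicate block, 3 of 422 miRNAs and no member passed, and the ratios of miR-15b-5p to miR-16-5p (−0.37), miR-16-5p to miR-451a (−1.51) and miR-103-3p to miR-451a (−1.58) could not pass, since the paired exact test with 4 pairs goes no lower than p = 0.125. Depth limits miR-16-2-3p and miR-503-5p most, with 1 to 31 reads per library.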

Other observations

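The other cell type lists gave these summed levels in TMM-normalized CPM, none of whose miRNAs passed the adjusted threshold by edgeR's quasi-likelihood test. Endothelial and mural miRNAs (4 of 4 measured) lay between 8863 and 13365 CPM in B6 and between 6831 and 10686 CPM in BTBR mice, lowest in BTBR replicate 2. Myeloid miRNAs (3 of 4 measured) lay between 589 and 735 CPM in B6 and between 509 and 1076 CPM in BTBR mice, highest in BTBR replicate 2. Choroid plexus miRNAs (5 of 5 measured) lay between 4227 and 30251 CPM in B6, highest in replicate 1, and between 2770.2 and 7799 CPM in BTBR mice. Skeletal muscle miRNAs (3 of 3 measured) lay between 594 and 983 CPM in B6 and between 786 and 1204 CPM in BTBR mice. Oligodendrocyte miRNAs (2 of 2 measured) lay between 2208 and 4221 CPM in B6 and between 2235 and 2868 CPM in BTBR mice. The mouse in which miR-16-5p was lowest and miR-195a-5p highest was thus also the lowest in the endothelial and mural sum. It was the highest in the myeloid sum, which miR-146a-5p carried (1034 CPM in that mouse). miR-126a-3p, miR-126a-5p, miR-143-3p and miR-142a-3p also went with the sums of their lists. Against the sums, the mural miR-145a-5p was highest in that mouse (301 CPM) and the myeloid miR-142a-5p lowest (30.1 CPM). The part of these miRNAs in the levels of the members was not tested.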
